A study of Homo sapiens with 10 samples.

Results

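Integrins are cell surface receptors made of 1 alpha and 1 beta subunit that tie a cell to its matrix, and laminins are matrix trimers of 1 alpha, 1 beta and 1 gamma chain that form the basement membrane under epithelia. The genes described here are all those whose symbol names an integrin alpha or beta subunit or a laminin chain: 38 genes, of 23018 symbols on chromosomes 1 to 22 and X in the deposited tables. They comprise 18 integrin alpha, 8 integrin beta and 12 laminin genes, and every one was listed in all 4 tables. The members were taken by name, not by their values, though earlier results of these data were known when they were chosen.

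The RNA came from WA09, a widely used line of human embryonic stem cells (hESC), and from cells of 4 kinds derived from it, at 2 libraries per cell type and 10 in all. The labels do not say that the 2 are separate cultures. All groups are this 1 line on Matrigel, itself a laminin-rich coating. The hESC medium, used for 4 days, had 4 factors: FGF (8 ng/mL), IGF-I (200 ng/mL), heregulin (10 ng/mL) and activin A (10 ng/mL). To make definitive endoderm (DE), activin A was raised to 100 ng/mL over 4 days beside FGF (8 ng/mL), without IGF-I or heregulin, and Wnt-3a (25 ng/mL) was present during day 1. For splanchnic mesoderm (MESO) the 4 hESC factors were kept for 4 days and BMP-4 (100 ng/mL) and Wnt-3a (25 ng/mL) were added. Neural progenitors (NPC) were made in 6 days by leaving out FGF and activin A and blocking both the activin receptor (SB431542) and the BMP receptor (LDN, 500 nM), with IGF-I (200 ng/mL) and heregulin (10 ng/mL) kept. The pre-neural crest group (NCSC) kept FGF (8 ng/mL), IGF-I (200 ng/mL) and heregulin (10 ng/mL) over 6 days, with SB431542 and with BIO, which inhibits GSK3. NPC and NCSC were seeded at 90000 cells per square centimetre and the others at 50000, so days and density differ from hESC as well as the factors.

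Each derivative has its own table, in which hESC and the derivative have 1 level each, in FPKM (fragments counted per length of transcript and per total of fragments). The authors had combined the libraries, so their spread cannot be shown, and depth is unknown. Rose, fell and changed mean a q-value below 0.05 in the authors' deposited table. A change is the difference in log2(FPKM + 1), derivative minus hESC of 1 table, which understates the change of low genes. The 4 tables share the hESC libraries, so the comparisons are not independent, and levels of different derivatives stand side by side without a test. In bulk RNA, fewer cells of a type and less RNA per cell cannot be told apart.

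The integrin receptors sort by what they bind. ITGA3, ITGA6 and ITGA7 pair with ITGB1 to bind laminin, and ITGA6 also pairs with ITGB4 in hemidesmosomes. ITGA5 with ITGB1 is the classical fibronectin receptor, and ITGAV pairs with ITGB1, ITGB3, ITGB5, ITGB6 or ITGB8 to bind vitronectin, fibronectin and latent TGF-beta through an Arg-Gly-Asp (RGD) motif. ITGA1, ITGA2, ITGA10 and ITGA11 bind collagen. Among laminins, the trimer of LAMA1, LAMB1 and LAMC1 is the main one of the earliest embryonic basement membranes, while the trimer of LAMA5, LAMB1 and LAMC1 is made by human pluripotent cells and sustains their growth.

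In hESC the receptor side was led by ITGB1 (125 to 151 FPKM over the 4 hESC columns), ITGB5 (54.0 to 72.1) and ITGA6 (43.3 to 51.4), and the laminin side by LAMA5 (35.1 to 47.1), LAMB1 (29.9 to 33.1) and LAMC1 (26.8 to 34.2). ITGA7, best known as the laminin receptor of muscle, stood at 22.0 to 25.7 FPKM and LAMB2 at 20.6 to 21.7. ITGAV was at 13.1 to 19.5, LAMA1 at 9.72 to 13.4, ITGA3 at 8.82 to 11.4 and ITGA5 at 4.80 to 6.91. Of the 38 members 17 reached 10 FPKM in at least 1 column of a table, and 13 stayed below 1 FPKM in every column, between 0 and 0.693. Those 13 include ITGAL, ITGAM, ITGAX, ITGAD, ITGB2 and ITGB7, subunits of leukocyte integrins, and LAMA3 and LAMB3.

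The 4 hESC columns come from the same libraries, and show how far a level moves with the table it is read from. Of the 21 members at or above 1 FPKM in all 4, the highest column exceeded the lowest by a median factor of 1.31. The widest were ITGAE (6.79 to 38.8 FPKM, a factor of 5.73) and LAMA2 (4.53 to 10.8, a factor of 2.38). Both symbols have several rows at the same position: ITGAE, whose span also holds the gene HASPIN, has 2 to 4 rows a table, and LAMA2 has 3 in the NCSC table. In that table LAMC3 also has 6 rows, and ITGA1 and ITGA2 have 2 each. No level of ITGAE itself is read below, but the alpha integrin sums and shares include it and the ITGA1 locus unless they are said to be left out. ITGA1 is listed in 1 locus with PELO, a gene for a ribosome rescue factor, so its values belong to the pair. The hESC column of the DE table was the highest of the 4 for 9 of the 21, among them ITGA5, LAMA1 and ITGB5, and that of the NPC table for 11.

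**Figure D1:**
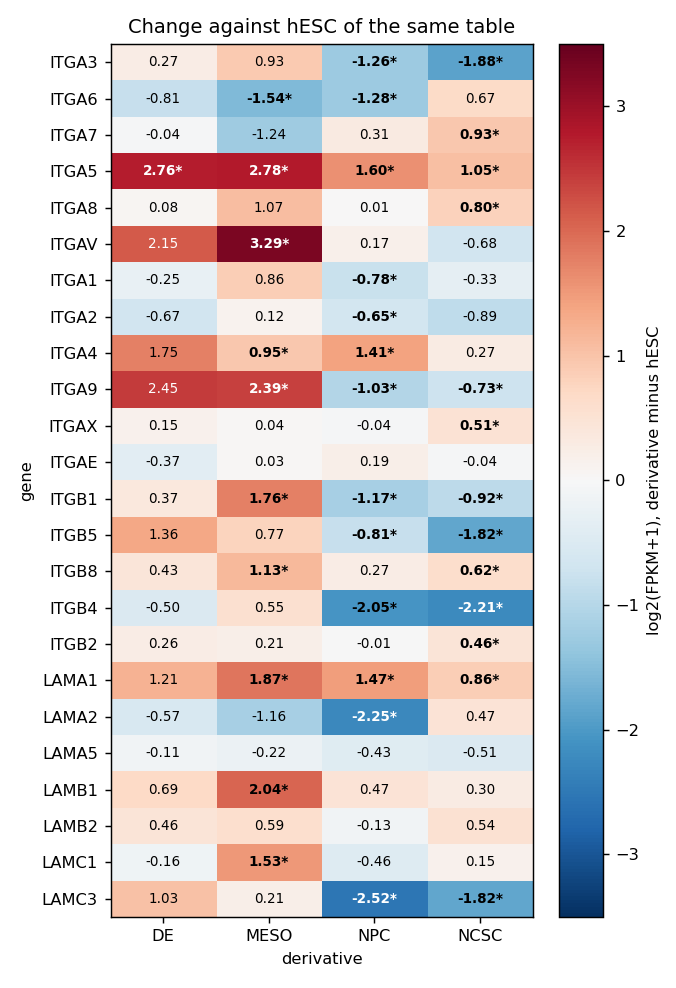
Change of 24 members (rows) in the 4 derivatives (columns) against hESC of the same table, in log2(FPKM + 1), shown by colour and number; a star and bold print mark a q-value below 0.05 in the authors' deposited table, and ITGA1 stands for the locus merged with PELO. ITGA5 is starred in all 4 columns, LAMA1 in 3, while ITGB1 and ITGA9 are starred in 3 with opposite directions in MESO and in NPC and NCSC.

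Members called by the authors numbered 1 in DE, 10 in MESO, 14 in NPC and 14 in NCSC, where 0.426%, 14.4%, 36.8% and 29.9% of all tested loci were called in either direction. ITGA5 alone was called in all 4 tables; ITGA9, ITGB1 and LAMA1 were called in 3, another 8 in 2, 10 in 1 and 16 in none. The plot of changes gives the values of 24 members that passed in a table or reached 10 FPKM. ITGA5 rose in every derivative. It went from 6.91 to 52.4 FPKM in DE (change 2.76, q = 0.0186, the authors' deposited table) and from 4.87 to 39.2 in MESO (2.78, q = 0.000868, the authors' deposited table). In NPC it went from 5.17 to 17.7 (1.60, q = 0.000323, the authors' deposited table) and in NCSC from 4.80 to 11.0 (1.05, q = 0.00343, the authors' deposited table). All 4 derivative levels lay above the hESC range of 4.80 to 6.91.

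LAMA1 rose in 3 of the 4 tables: from 9.72 to 38.3 FPKM in MESO (change 1.87), from 10.5 to 31.0 in NPC (1.47) and from 10.6 to 20.1 in NCSC (0.86). The DE table listed it at 13.4 and 32.4, which did not pass (q = 0.768, the authors' deposited table). LAMA5, the other abundant alpha chain, was called in none, with 24.3 to 43.4 FPKM in the derivatives. LAMA1 made up 18.7 to 20.3% of all laminin alpha chain FPKM in the 4 hESC columns, against 40.6% in DE, 54.1% in MESO and 52.9% in NPC. In NCSC the share was 33.5%, or 44.9% with another row for LAMA2 described below, which gives 20.8% in hESC of the same table. The share of LAMA5 went the other way, from 61.5 to 71.3% in hESC to 54.5% in DE, 43.3% in MESO, 45.5% in NPC and 40.5% in NCSC. With that other row it was 68.6% in hESC of the NCSC table and 54.2% in NCSC. Both are shares of 1 sum, so a rise of LAMA1 alone lowers the share of LAMA5.

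The RefSeq table of promoters (GRCh38.p14) holds an entry for 26 of the 38 members, but none for LAMA1. The 250 bases before the start are shown for ITGA5, the member called in all 4 tables, and for LAMB1 and LAMC1, partner chains that rose together in MESO, each 5′ to 3′ on the strand of its gene. Capitals mark the GC box, GGGCGG on either strand.
ITGA5 (chr12:54419267-54419516, minus strand): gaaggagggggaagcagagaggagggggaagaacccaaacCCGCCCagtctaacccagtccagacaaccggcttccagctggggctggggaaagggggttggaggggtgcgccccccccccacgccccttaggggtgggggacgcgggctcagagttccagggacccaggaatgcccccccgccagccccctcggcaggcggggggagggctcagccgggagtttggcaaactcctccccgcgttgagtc
LAMB1 (chr7:108003162-108003411, minus strand): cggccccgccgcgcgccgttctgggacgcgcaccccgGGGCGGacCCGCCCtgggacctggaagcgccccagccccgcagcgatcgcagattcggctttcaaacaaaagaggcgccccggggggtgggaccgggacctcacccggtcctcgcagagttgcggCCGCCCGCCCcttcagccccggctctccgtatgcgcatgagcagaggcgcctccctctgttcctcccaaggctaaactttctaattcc
LAMC1 (chr1:183023170-183023419, plus strand): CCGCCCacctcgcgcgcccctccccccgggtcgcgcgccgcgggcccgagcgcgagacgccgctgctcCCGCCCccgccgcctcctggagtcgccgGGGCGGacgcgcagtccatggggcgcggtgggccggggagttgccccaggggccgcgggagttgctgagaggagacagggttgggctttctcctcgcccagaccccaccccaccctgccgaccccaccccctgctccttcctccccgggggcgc
The GC box occurs 1 time in the ITGA5 window, 4 times in that of LAMB1, where 2 of the matches overlap, and 3 times in that of LAMC1. It is found in 42.6% of the 35116 entries. None of the 3 windows holds CCAAT (in 32.0% of entries), TATAAA (10.7%) or the AP-1 letters TGANTCA (6.57%), on either strand. The windows are rich in G and C, at 70.0%, 70.4% and 79.6%, against a median of 58.0% over all entries.

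In DE, ITGA5 was the only member called. It was 1 of 26 members that the authors had tested, beside 0.406% of all 14789 tested loci called higher and 0.0203% called lower. No member was called lower; 6 members were higher and none lower at an unadjusted p-value below 0.05 in the authors' deposited table, where 3.51% of all tested loci were higher and 1.37% lower. Several members stood far from hESC without passing. ITGAV was 13.1 FPKM in hESC and 61.3 in DE (q = 0.239, the authors' deposited table). ITGA9, which pairs with ITGB1 to bind tenascin and osteopontin, was 1.41 and 12.1 (q = 0.184, the authors' deposited table). ITGA4, the subunit that binds fibronectin and VCAM1, was 0.282 and 3.32 (q = 0.394, the authors' deposited table), and ITGB5 was 72.1 and 186 (q = 0.719, the authors' deposited table). When p-values were taken from the deposited statistic under a normal curve, ITGA4 and ITGA9 passed as well as ITGA5. By the authors' own q-value, ITGA5 did not pass at a threshold of 0.01.

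ITGB5, a partner of ITGAV, made up 48.9% of all beta integrin FPKM in DE, close to ITGB1 at 49.8%, while in hESC it made up 26.7 to 32.3%. LAMC3, a gamma chain, was 7.69 FPKM in hESC and 16.7 in DE without passing, the highest level among the 4 derivatives. The laminin-binding subunits ITGA6 (45.5 and 25.6 FPKM), ITGA7 (25.7 and 25.1) and ITGA3 (11.4 and 13.9) did not pass. Nor did LAMB1 (30.2 and 49.5) or LAMC1 (34.2 and 30.5).

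**Figure D2:**
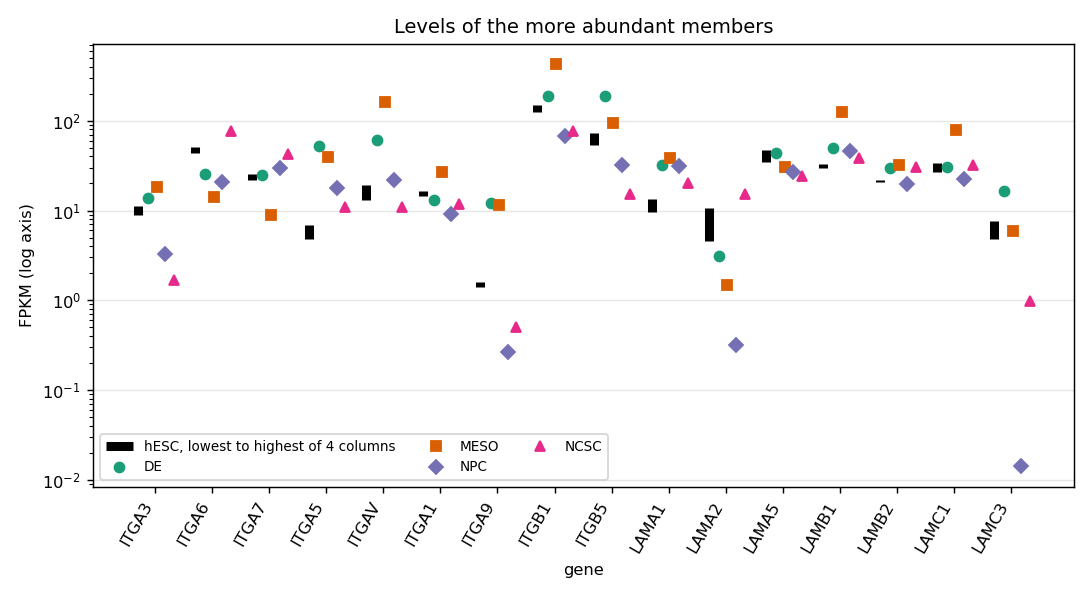
Levels of the 16 members that reached 10 FPKM in a column, ITGAE left out; the vertical axis is FPKM on a log scale, black bars span the lowest to the highest of the 4 hESC columns and each symbol is the 1 value of a derivative. ITGB1, ITGAV, LAMB1 and LAMC1 are highest in MESO, ITGA6 and ITGA7 in NCSC, and LAMC3 drops to 0.0142 FPKM in NPC.

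MESO held the largest number of rises. Of 28 tested members 9 rose and 1 fell, that is 32.1% and 3.57%, beside 9.05% called higher and 5.37% called lower of 14796 tested loci. The median change was 0.86 for the 25 members that reached 1 FPKM in hESC or MESO, beside 0.07 over all 13492 such loci; 4 of the 25 had under 1 FPKM in hESC and were kept through their MESO level alone, and the median over all 38 members was 0.21.

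ITGB1 and ITGAV had the highest levels of all members in MESO. ITGAV (chromosome 2, 187454487 to 187545628, hg19) rose from 15.5 to 160 FPKM, a fold of 10.3 (change 3.29, q = 0.000868, the authors' deposited table). ITGB1 rose from 125 to 426 (1.76, q = 0.00552, the authors' deposited table), which was 80.0% of the beta integrin FPKM. ITGB8, a partner of ITGAV in TGF-beta activation, rose from 0.352 to 1.97. ITGB5 was 54.0 and 93.1 (q = 0.217, the authors' deposited table). ITGB6, an epithelial partner of ITGAV, was listed at 0.00955 and 3.63 without passing, and ITGA8 at 0.00314 and 1.11. For both the log2 ratio was large beside the deposited statistic. The quotient was 4.34 for ITGB6 and 6.52 for ITGA8 against a median of 0.609 for loci of the MESO table with a mean of at least 20 FPKM, so their folds are uncertain.

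ITGA9 rose from 1.41 to 11.6 FPKM (change 2.39) and ITGA4 from 0.244 to 1.41 (0.95). Against these, ITGA6 fell from 43.3 to 14.2 (-1.54, q = 0.00274, the authors' deposited table), while ITGA7 at 22.5 and 8.93 (q = 0.0532, the authors' deposited table) and ITGA3 at 9.04 and 18.1 (q = 0.0891, the authors' deposited table) did not pass. The laminin-binding subunits together made up 49.2 to 60.5% of the alpha integrin FPKM in the hESC columns and 14.1% in MESO. The RGD-binding subunits (ITGA5, ITGAV, ITGA8 and ITGA2B) made up 16.2 to 19.5% in hESC and 68.9% in MESO. Without ITGAE and the ITGA1 locus these shares were 72.5 to 74.5% against 16.0%, and 22.2 to 24.6% against 77.9%.

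The 3 chains of the early embryonic laminin rose together in MESO. LAMA1 is described above; LAMB1 (chromosome 7, 107563138 to 107644027, hg19) rose from 29.9 to 126 FPKM (change 2.04, q = 0.000868, the authors' deposited table) and LAMC1 (chromosome 1, 182992373 to 183114727, hg19) from 26.8 to 79.3 (1.53, q = 0.000868, the authors' deposited table). LAMB1 and LAMC1 were not called in any other table. LAMB2 and LAMA5 did not pass, at 21.0 and 32.1, and 35.8 and 30.6 FPKM. LAMA2, the alpha chain of muscle and nerve basement membranes, was 4.53 and 1.47 (q = 0.0519, the authors' deposited table). With normal p-values from the deposited statistic ITGA4, ITGA6, ITGB1, ITGB8 and LAMC1 did not pass in MESO, and ITGA11, which binds collagen, did. ITGA11 was listed at only 0.00958 and 0.693 FPKM. Its quotient of log2 ratio and statistic was 1.89 against the median of 0.609, so its fold is uncertain.

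Some markers of other cell types rose in the same MESO table. Of 7 trophoblast and amnion markers 5 rose and none fell, the summed level of all 7 going from 19.7 to 484 FPKM, with ELF5 at 0.0760. Of 5 fibroblast markers 3 rose (COL6A3, PDGFRA and DCN, 1.08 to 103 FPKM summed). All 5 summed to 44.0 and 302, of which LUM, not called, made 0.0721 and 172.9, while THY1, not called, was 42.9 and 25.7. Of 5 endothelial markers KDR (6.75 to 55.9 FPKM) and TEK (6.84 to 37.2) rose. PECAM1, CDH5 and VWF, not called, were at 0.0701, 0.833 and 0.157 in MESO, and all 5 summed to 13.8 and 94.2. The splanchnic mesoderm markers rose, 6 of 6, from 16.5 to 1055. Whether such cells were present, and what part these markers' RNA had in the integrin and laminin levels of MESO, was not tested.

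**Figure D3:**
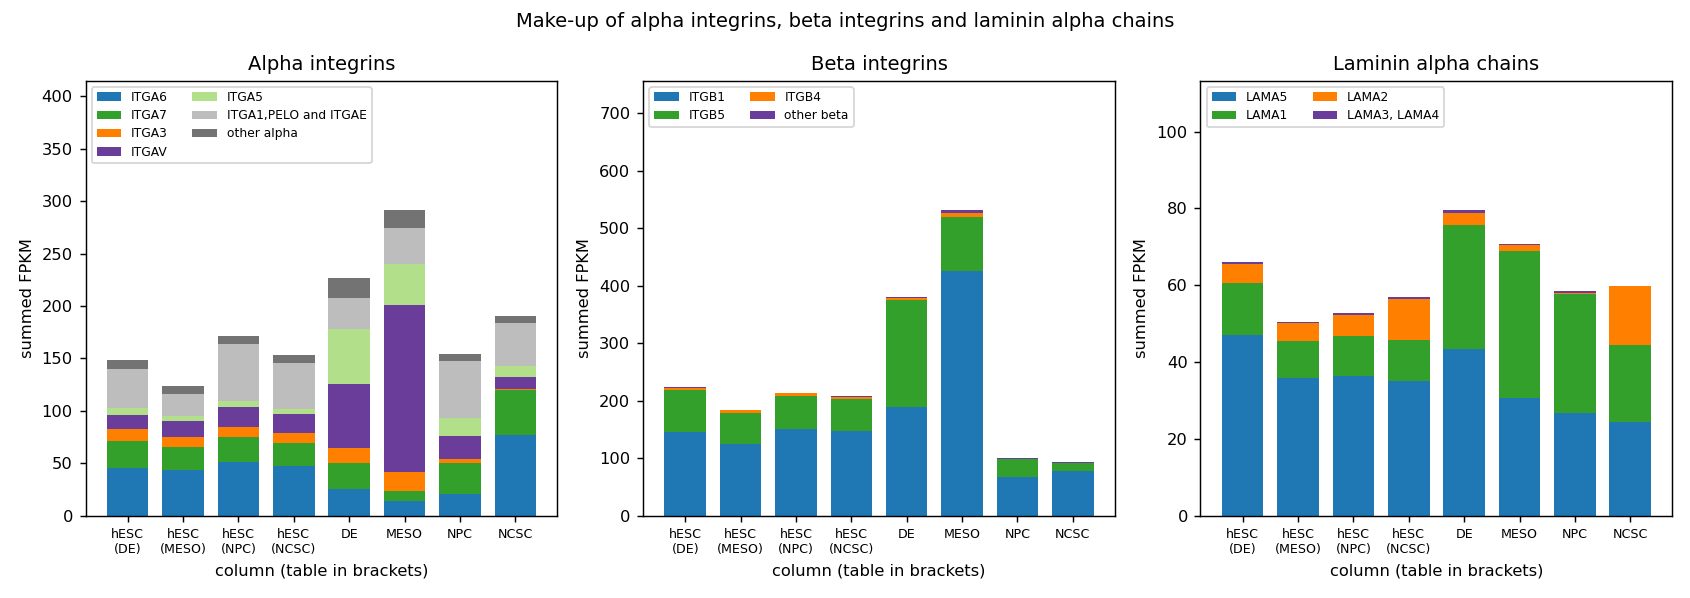
Summed FPKM of alpha integrins, beta integrins and laminin alpha chains in the 4 hESC columns (table in brackets) and the 4 derivatives, stacked by gene. The beta integrin sum is 533 in MESO and 94.1 to 100.0 in NPC and NCSC, against 184 to 223 in hESC, and LAMA1 takes a larger share of the alpha chains in each derivative than in hESC; the LAMA2 part in NCSC depends on which of 3 rows is read.

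In NPC the balance was the reverse. Of 24 tested members 3 rose and 11 fell, 12.5% and 45.8%, beside 12.0% called higher and 24.8% called lower of 14863 tested loci, so the share that rose was near that of all loci. The median over all 13579 expressed loci was -0.27 in this table, and that of 22 expressed members -0.55, or -0.28 relative to all loci and -0.11 over all 38 members. ITGB1 fell from 151 to 66.7 FPKM (change -1.17) and ITGB5 from 57.1 to 32.1 (-0.81), and summed beta integrin FPKM went from 214 to 100.0. ITGA6 fell from 51.4 to 20.6 (-1.28) and ITGA3 from 9.19 to 3.26 (-1.26), each with q = 0.000323, the authors' deposited table. ITGA7 was 23.8 and 29.8 without passing, so that it made up 55.5% of the laminin-binding alpha FPKM in NPC and 28.2% in hESC of the same table.

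Among the falls past 2 on the log2 scale in NPC were those of LAMC3, LAMA2 and ITGB4. ITGB4, the hemidesmosome subunit, fell from 4.89 to 0.422 FPKM (change -2.05, q = 0.0204, the authors' deposited table). The log2 ratio of ITGB4 divided by its deposited statistic was 1.29, against the median given below, so the size of that fall is uncertain. LAMA2 fell from 5.28 to 0.323 (-2.25, q = 0.000323, the authors' deposited table). Its quotient, taken likewise, was 1.00. LAMC3 was listed at 4.83 and 0.0142 (-2.52, q = 0.00415, the authors' deposited table). Its log2 ratio divided by the deposited statistic was 4.92, against a median of 0.434 for the NPC table, so the size of that fall is uncertain. LAMC1 was 31.2 and 22.5 FPKM without passing. Keratin and other surface epithelium markers were below 1 FPKM in both cell types (5 genes, summed 0.234 and 0.730 FPKM, none called). Most of the sum was COL17A1, at 0.204 and 0.711, while KRT5 and KRT1 were listed at 0.

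Of the other NPC members, ITGA4 rose from 0.332 to 2.54 FPKM (change 1.41) and ITGA9 fell from 1.59 to 0.265 (-1.03), each with q = 0.00086, the authors' deposited table. These alpha subunits are close relatives of each other, and both rose in MESO. The locus of ITGA1 and PELO fell from 16.4 to 9.14 and ITGA2 from 1.86 to 0.824. ITGAV was 19.5 and 22.1, LAMB1 33.1 and 46.3 and LAMB2 21.7 and 19.8, none of them called. With normal p-values from the deposited statistic the ITGA1 locus, ITGA2, ITGB5 and LAMC3 did not pass.

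In NCSC, 7 of 26 tested members rose and 7 fell, 26.9% each way, beside 10.2% called higher and 19.7% called lower of 14901 tested loci. The median change of expressed members in NCSC was -0.18 (22 members) and that of all 13536 expressed loci -0.23. It was 0.046 relative to all loci, and -0.42 with the other row for LAMA2 and rows chosen likewise for other symbols, so it gives no direction. Of the 8 beta subunits 3 fell and 2 rose in NCSC. ITGB1 fell from 147 to 77.0 FPKM (change -0.92, q = 0.00648, the authors' deposited table) and ITGB5 from 56.0 to 15.1 (-1.82, q = 0.000455, the authors' deposited table). ITGB4 fell from 4.61 to 0.209 and LAMC3 from 6.01 to 0.991. LAMC3 has 6 rows in the NCSC table, and the others, at most 0.901 FPKM in hESC, read lower in NCSC without being called. The log2 ratio of ITGB4 divided by its deposited statistic was 1.67, so the size of that fall is uncertain, and the quotient of LAMC3 was 0.958. The median was 0.437 for loci of the NCSC table with a mean of at least 20 FPKM. ITGA3 fell from 8.82 to 1.67 (-1.88) and ITGA9 from 1.49 to 0.500.

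The other laminin-binding subunits had their highest levels in NCSC. ITGA7 rose from 22.0 to 42.9 FPKM (change 0.93, q = 0.00751, the authors' deposited table), and ITGA6 (chromosome 2, 173292306 to 173371382, hg19) was 47.7 and 76.8 without passing (q = 0.0547, the authors' deposited table). ITGA3, ITGA6 and ITGA7 together made up 63.6% of the alpha integrin FPKM in NCSC and 34.8% in NPC. Without ITGAE and the ITGA1 locus these shares were 80.7% and 53.3%, against 72.5 to 74.5% in hESC. ITGAV was 18.2 and 11.0 (q = 0.0658, the authors' deposited table). NCSC and NPC were not compared by a test.

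Of the 7 rises in NCSC, 3 were of genes below 1 FPKM in both cell types. ITGAX was 0.0285 and 0.465 FPKM, and ITGB2, its partner in leukocytes, 0.0590 and 0.461. Their quotients of log2 ratio and statistic were 1.27 and 1.35. The median for loci of the NCSC table with a mean of at least 20 FPKM was 0.437, so both folds are uncertain. ITGA8, a receptor for nephronectin, was listed at 0 in hESC and 0.736 in NCSC with no statistic in the authors' deposited table. Beside ITGAX and ITGB2, the 5 blood and leukocyte markers summed to 0.636 FPKM in hESC and 0.132 in NCSC, with PTPRC and CD14 listed at 0 in NCSC. ITGB8 rose from 0.401 to 1.16.

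LAMA2 shows how 1 symbol can give different answers in the NCSC table. The row with the highest mean read 10.8 FPKM in hESC and 15.4 in NCSC (q = 0.509, the authors' deposited table). Another row read 4.91 and 0.188 (change -2.31, q = 0.00281, the authors' deposited table), and its hESC level is nearest the 4.53 to 5.28 of the other 3 tables. The remaining row read 3.82 and 2.11. The direction of LAMA2 in NCSC is therefore not given. LAMB1 (31.1 and 38.4), LAMB2 (20.6 and 30.4), LAMC1 (28.5 and 31.7) and LAMA5 (35.1 and 24.3) did not pass. With normal p-values from the deposited statistic ITGA7, ITGA9, ITGB1, ITGB2, ITGB8 and LAMA1 did not pass in NCSC.

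The labelled cell types were set against their markers in the same tables. Of 6 definitive endoderm markers 5 rose in DE, and of 5 neural progenitor markers 5 rose in NPC. Of the endoderm markers CXCR4 and GATA6 also rose in MESO. CXCR4 alone of them rose in NPC and NCSC, where 3 and 2 others fell. Of the neural progenitor markers OTX2 also rose in DE (17.1 to 177 FPKM) and SOX1 in NCSC (0.284 to 9.56), while OTX2 fell in MESO and NCSC. Among the splanchnic mesoderm markers GATA4 alone also rose in DE (0.846 to 56.1 FPKM, against 49.3 in MESO). BMP4 alone of them fell in NPC and NCSC. Of 6 pre-neural crest markers 3 rose in NCSC (PAX3, SOX9 and MSX1), while TFAP2A (0.0463 FPKM) and ZIC1 (0.116) were near 0 there and SOX10 (2.91) did not pass; 4 of these 6 also rose in MESO and 3 in NPC. Of 5 hESC markers none was called in DE, where 0.0203% of all tested loci were called lower. All 5 read lower there, their sum being 1785 FPKM in hESC and 612 in DE, with POU5F1 at 232 and 29.7. In MESO, NPC and NCSC 5, 4 and 3 of them fell, with SOX2 rising in NPC.

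Genes that work with the members were counted in 5 lists: 24 genes of the adhesion complex inside the cell, 12 laminin partners and other laminin receptors, 6 collagen IV chains, 18 integrin ligands and 7 netrins and other proteins with laminin domains. Their counts stand beside the shares of all tested loci called higher and lower, which were 0.406% and 0.0203% in DE, 9.05% and 5.37% in MESO, 12.0% and 24.8% in NPC, and 10.2% and 19.7% in NCSC. In the adhesion complex list none of 23 tested was called in DE and 7 of 23 rose in MESO (30.4%). In NPC 2 rose (8.70%) and 10 fell (43.5%) of 23 tested, and in NCSC 2 rose (8.33%) and 8 fell (33.3%) of 24. ACTN1, an actin crosslinker at adhesion sites, rose from 94.8 to 229 FPKM in MESO and fell from 104 to 34.6 in NPC and from 99.0 to 45.7 in NCSC. FLNA (192 to 89.3 and 183 to 98.2), ACTN4 (91.4 to 51.4 and 90.6 to 54.0) and ZYX (97.2 to 31.6 and 91.2 to 35.4) fell in NPC and NCSC. The list's median change over all 24 genes, whatever their level, was 0.26 in DE, 0.74 in MESO, -0.48 in NPC and -0.32 in NCSC. Beside it stand 0.05, 0.07, -0.27 and -0.23 over all loci that reached 1 FPKM, a filter the list did not have.

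**Figure D4:**
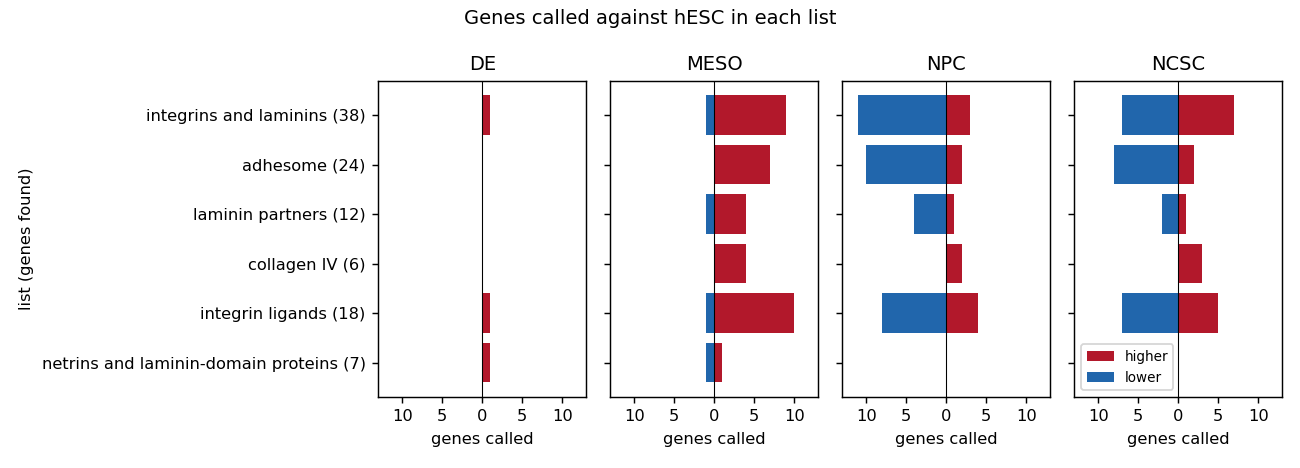
Number of genes called lower (left, blue) and higher (right, red) than hESC at a q-value below 0.05 in the authors' deposited table, for the integrins and laminins and 5 lists of genes that work with them, in each derivative. Of the 18 integrin ligands 10 are higher in MESO and 8 lower in NPC, and no collagen IV gene is called lower in any table.

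Collagen IV, the other network of the basement membrane, was called in 1 direction: of the 6 genes 4 rose of 4 tested in MESO, 2 of 4 in NPC and 3 of 5 in NCSC, and none of 4 was called in DE. COL4A5 rose from 4.56 to 23.6 FPKM in MESO, 3.87 to 44.0 in NPC and 4.05 to 37.2 in NCSC, and its neighbour COL4A6 from 2.32 to 12.5, 2.08 to 28.0 and 2.34 to 16.5. COL4A1 and COL4A2, the commonest pair, rose to 256 and 202 in MESO from 30.1 and 23.7. COL4A2 also rose in NCSC (24.2 to 57.4).

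Of the laminin partners 4 rose (33.3%) and 1 fell (8.33%) of 12 tested in MESO, and none of 11 was called in DE. In NPC 1 rose (8.33%) and 4 fell (33.3%) of 12, and in NCSC 1 rose (8.33%) and 2 fell (16.7%) of 12, which is near the shares of all tested loci. COL18A1, a basement membrane collagen, rose in MESO (36.9 to 85.3 FPKM) and NCSC (34.6 to 81.2). BCAM, a laminin receptor outside the integrin family, fell in MESO (35.7 to 14.6) and NPC (38.2 to 11.0), and DAG1, dystroglycan, fell in NPC (47.7 to 23.7) and NCSC (44.7 to 26.9). LGALS3, a lectin that binds laminin, rose in MESO (7.94 to 39.7) and fell in NPC (8.61 to 1.11) and NCSC (8.39 to 3.57).

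Of the integrin ligands 1 of 16 tested rose in DE, and 10 rose (58.8%) and 1 fell (5.88%) of 17 in MESO. In NPC 4 rose and 8 fell of 16 tested, and in NCSC 5 rose (31.3%) and 7 fell (43.8%) of 16. FBN2, a fibrillin with an RGD motif, rose in all 4: 3.56 to 35.3 FPKM in DE, 2.90 to 46.1 in MESO, 3.30 to 30.9 in NPC and 3.06 to 7.36 in NCSC. FN1, the ligand of ITGA5, was 41.2 and 130 in DE without passing, rose from 27.3 to 731 in MESO, was 32.4 and 21.7 in NPC without passing, and fell from 31.1 to 16.0 in NCSC; it was named after its values were seen. TNC, a ligand of ITGA9, rose in MESO (4.40 to 50.03), NPC (4.66 to 13.3) and NCSC (4.31 to 12.3). THBS1 rose in MESO (6.98 to 44.3) and fell in NPC (7.86 to 2.14) and NCSC (7.34 to 2.49), and FBN1 rose in MESO (0.707 to 11.1), NPC (0.849 to 18.5) and NCSC (0.774 to 4.25). Of the netrin list, NTN1 rose in DE (2.58 to 37.5) and fell in MESO (1.86 to 0.410), and EGFLAM rose in MESO (0.142 to 13.4).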

How the data were processed

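The authors deposited 1 table per derivative. Per the file headers each holds FPKM of hESC and of the derivative, the authors' test statistic (a signed score), p-value and q-value; a fold column was not used. Cufflinks 2.2.1, TopHat2 2.0.13, featureCounts and Subread 1.5.2 appear in the submitters' processing notes, as does the build hg19, with no role for any tool. How FPKM were scaled and rows filtered is not given in the sources used here. Depth is unknown and no interval can be given.

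Rows on chromosomes 1 to 22 and X were kept, symbols were split at commas, and the row of highest mean FPKM was used per symbol. A p-value of 1 with a statistic of 0 was taken as not tested. The members and lists were chosen with earlier results of these data known. Members with 10 FPKM in a column or a call are given with values, except 1 that is counted but not reported here by name, and of each list up to 4 genes called in most tables. With 1 value per cell type no test across libraries, leave-one-out run or block could be made, so the calls are the authors'. Shares are of summed FPKM. No member had a ratio and statistic of opposite sign. The step for normal p-values (Benjamini-Hochberg adjusted) was tested on simulated data. Promoters are RefSeq's (GRCh38.p14), matched by symbol. Python 3.11.15, pandas 2.3.3 and scipy 1.17.1 were used.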

Additional observations from a re-analysis of the deposited data

How the results depend on the processing

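No paired analysis was possible because the tables hold 1 combined value per cell type, and leaving out a replicate could not be run for the same reason. At a q-value below 0.01, the members higher in DE were 0 in place of 1, and those higher in NCSC 4 in place of 7. Asking for 1 FPKM or more in 1 of the 2 cell types also left 4 higher in NCSC, and a log2 change of at least 1 left 1. Members lower in NPC were 8 in place of 11 at a q-value below 0.01, and also at a log2 change of at least 1. The latter left 5 in place of 7 lower in NCSC. Smaller shifts are not listed. With normal p-values from the deposited statistic the members higher in DE were 3, and those higher in MESO 6 in place of 9. Those lower in MESO were then 0 in place of 1 and those lower in NPC 7 in place of 11. In NCSC those higher were 2, ITGA8 having no statistic, and those lower 5 in place of 7. The cause was not tested. Reading the row nearest the hESC level of the other tables, chosen after seeing the data, added LAMA2 to the calls in NCSC. The median change of expressed members in DE was 0.12, and 0.35 with hESC values from the other 3 tables. The median change of expressed members in MESO was 0.86, with a pseudocount of 5 it was 0.38 and with no filter 0.21. The median change of expressed members in NPC was -0.55, with a pseudocount of 5 it was -0.35, centred on all expressed loci -0.28 and with no filter -0.11. The median change of expressed members in NCSC was -0.18, centred it was 0.046, a change of sign, with no filter -0.025 and with the nearest row -0.42. No called member changed direction under pseudocounts of 0.1 and 5, centring, hESC values from other tables or sums over rows. The shares without ITGAE and the ITGA1 locus were chosen after seeing the data.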
